A study of Mus musculus with 2 samples.

Results

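Among 9 transcription factor genes linked to limb and muscle precursors, Dlx1 and Lbx1 were over 2-fold lower in Mll1-deleted myoblasts, Msx2 was over 2-fold higher, and Pax3, Pax7, Dlx2, Msx1, Meox2 and Prrx1 differed by less than 2-fold. These 9 genes are the paired-box genes Pax3 and Pax7 and 7 homeobox genes, out of 19938 genes that could be named on the array. They were found by their gene symbols, each of which names exactly 1 probe set here. They were chosen by name at a time when their log2 differences between these same arrays were known, so every difference below is a description of the arrays and supports nothing further.

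Primary myoblasts are dividing cells derived from satellite cells, the stem cells of muscle. They came from hind limb muscle of mice 5 to 6 weeks old that carried Mll1 fl/fl alleles and the Rosa26-CreERT2 allele, which makes Cre recombinase in all cells but lets it act only after 4-hydroxytamoxifen is given. Control and Mll1 cKO (labelled MLL1 KO) cultures were grown from 1 line in Ham's F10 supplemented with FGF (5 ng/ml) and serum (20% FBS). The Mll1 cKO culture received 500 nM 4-hydroxytamoxifen in 0.01% ethanol for 7 days and the control culture the ethanol alone, followed by 3 days without either per the labels and 2 days per the methods. RNA from each was read on 1 Affymetrix MoGene 1.0 ST array, so that drug, deletion and culture cannot be told apart, no spread between cultures exists, and no difference could be tested.

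The values are log2 signals after RMA, and a log2 difference is always taken as Mll1 cKO minus control, with 1 standing for a 2-fold difference. Over the 21789 probe sets with 1 gene symbol the median log2 difference was -0.05, and the central 95% lay between -0.56 and 0.77. A difference of over 2-fold was found for 1.18% of these probe sets in the higher direction and for 0.101% in the lower direction, whereas 56% were lower by any amount. Kmt2a, which encodes MLL1, had log2 signals of 9.44 (control) and 9.66 (Mll1 cKO). Its probe set sums up probes along the whole transcript, of which recombination takes out a part, so it does not check the deletion. All 9 myoblast markers examined were bright in both arrays, between 9.32 and 12.27 on the log2 scale, and none differed by over 2-fold. The largest difference was that of Vcam1, 1.37-fold lower, so the myoblast label was met by these 9 markers. Myf5 and Pax7 were not on this list, which was made with earlier results of these arrays known. Myf5 had log2 signals of 9.51 (control) and 6.14 (Mll1 cKO), 10.3-fold lower. The brightness of different probe sets also depends on their probes, so dim and bright are only rough guides to the presence of a transcript. Brightness is not used here to set the amount of one transcript against another.

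PAX3 and PAX7 are close relatives that bind DNA through a paired domain and a homeodomain. PAX3 acts in the embryo, where it directs muscle precursors out of the somites and into the limb buds, and PAX7 takes over in the satellite cells of postnatal muscle. LBX1 is a homeodomain protein of the precursors that migrate into the limb and is required for their migration, and MEOX2 acts in limb muscle downstream of the somite. MSX1 is a repressor known to hold muscle precursors and myoblasts back from differentiation, and MSX2, its relative, is a target of bone morphogenetic protein (BMP) signalling in limb, tooth and skull. DLX1 and DLX2 are homeodomain proteins best known from forebrain interneurons and the branchial arches, and PRRX1 is a homeodomain protein of limb bud mesenchyme.

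**Figure D1:**
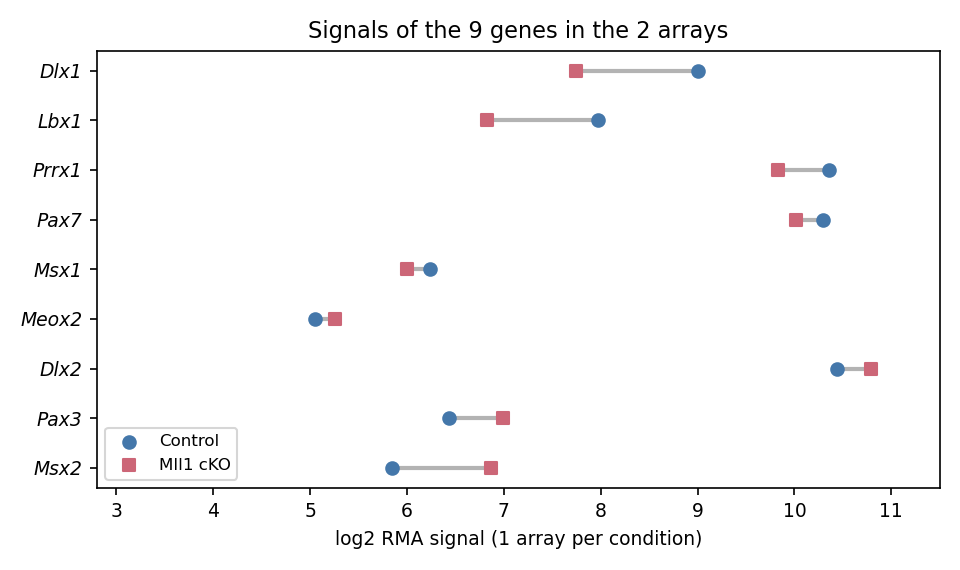
The log2 RMA signal of each of the 9 genes (horizontal axis) in the control array (circles) and the Mll1 cKO array (squares), ordered from the lowest to the highest difference. The Dlx1 and Lbx1 squares lie over 1 log2 unit to the left of their circles and the Msx2 square over 1 unit to the right.

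Dlx1 had the lowest difference of the 9. Its log2 signals were 9.0 (control) and 7.74 (Mll1 cKO), a log2 difference of -1.26, or 2.40-fold lower. Only 8 of the 21789 named probe sets had a lower difference, which places Dlx1 at rank 9 from the bottom. Among the 2179 probe sets of similar mean signal, 0.184% were as low or lower.

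Dlx2, which lies beside Dlx1 on chromosome 2 and is read from the opposite strand, differed in the other direction. Its log2 signals were 10.44 (control) and 10.79 (Mll1 cKO), a log2 difference of 0.34, or 1.27-fold higher. Of the probe sets with similar signal, 91.5% had a difference as low or lower. The Dlx1 difference minus the Dlx2 difference was thus -1.61 log2 units, with the Dlx1 to Dlx2 ratio 3.04-fold lower in the Mll1 cKO array. On the other side of Dlx1 lies Metap1d, a mitochondrial methionine aminopeptidase gene, with log2 signals of 7.29 and 7.70 and a 1.33-fold higher value. Dlx1as, an antisense RNA gene that comes after Dlx1 and before Dlx2 in RefSeq order, was dim. Its log2 signals were 4.88 and 4.34, a 1.46-fold lower value. Whether Dlx1as overlaps Dlx1, or its probes share sequence with Dlx1, was not examined.

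The regions just before the starts of both Dlx genes are shown because the genes are neighbours with opposite differences, and those of Pax7, Msx2 and Prrx1 because they differ from them in CG content. MLL1 has a CXXC domain that binds unmethylated CpG dinucleotides. The letters are from RefSeq on build GRCm38.p6, the 250 bases before the gene's start, 5′ to 3′ on the gene's own strand, with each CG dinucleotide in capitals. They lie at chr2:71529195-71529444 on the plus strand for Dlx1, and on the minus strand at chr2:71546755-71547004 for Dlx2, chr4:139832969-139833218 for Pax7, chr13:53472781-53473030 for Msx2 and chr1:163313651-163313900 for Prrx1.
Dlx1: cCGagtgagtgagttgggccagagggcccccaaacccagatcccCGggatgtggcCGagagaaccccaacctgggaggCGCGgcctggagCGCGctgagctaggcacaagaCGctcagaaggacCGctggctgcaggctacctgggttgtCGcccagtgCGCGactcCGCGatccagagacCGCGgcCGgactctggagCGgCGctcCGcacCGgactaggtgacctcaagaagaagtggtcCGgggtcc
Dlx2: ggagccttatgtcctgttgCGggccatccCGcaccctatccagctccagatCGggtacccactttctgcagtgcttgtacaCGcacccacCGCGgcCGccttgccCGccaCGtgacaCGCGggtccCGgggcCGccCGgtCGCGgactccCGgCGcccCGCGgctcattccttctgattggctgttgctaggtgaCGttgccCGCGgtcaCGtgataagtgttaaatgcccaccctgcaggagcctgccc
Pax7: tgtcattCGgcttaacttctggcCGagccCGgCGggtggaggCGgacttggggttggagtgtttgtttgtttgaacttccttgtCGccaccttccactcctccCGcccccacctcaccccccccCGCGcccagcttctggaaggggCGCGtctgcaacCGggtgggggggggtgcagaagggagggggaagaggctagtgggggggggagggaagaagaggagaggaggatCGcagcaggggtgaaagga
Msx2: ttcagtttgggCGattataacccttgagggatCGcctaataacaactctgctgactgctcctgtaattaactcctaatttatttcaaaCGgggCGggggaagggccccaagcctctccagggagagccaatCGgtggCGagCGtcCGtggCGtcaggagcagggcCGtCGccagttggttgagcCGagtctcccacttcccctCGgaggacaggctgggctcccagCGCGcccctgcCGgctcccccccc
Prrx1: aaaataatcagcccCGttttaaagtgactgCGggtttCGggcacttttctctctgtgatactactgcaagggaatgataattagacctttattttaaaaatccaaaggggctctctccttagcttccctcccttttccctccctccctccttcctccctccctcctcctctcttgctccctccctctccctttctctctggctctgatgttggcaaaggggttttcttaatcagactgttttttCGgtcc

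Of the 9 genes, 7 had such a window, and Pax3 and Lbx1 did not. Over windows of 300 bases, which run 50 bases past the start, Dlx1 held 27 CG dinucleotides, and 15.5% of 32851 windows of this length over all genes held as many or more. Dlx2 and Msx1 each held 29, a count reached by 12.9% of windows. Msx2 held 22, Pax7 held 17, Meox2 held 12 and Prrx1 held 6, against a median of 7 over all windows. The gene that was over 2-fold lower and its neighbour that was 1.27-fold higher therefore differed by only 2 in this count. In the 250 bases before the start the counts were 22 for Dlx1, 24 for Dlx2, 13 for Pax7, 16 for Msx2 and 4 for Prrx1.

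The letters TAATTA, a core that many homeodomain proteins bind and that reads the same on both strands, occurred once in the 250 bases of Msx2 and once in those of Prrx1, and not in the other 5 windows. Of all windows, 4.84% held it. The longer palindrome of TAAT and ATTA with any 2 bases between, to which paired-class homeodomains bind as dimers, and GTCACGC, the core of the paired domain site searched on both strands, were in none of the 7 windows and in 0.384% and 1.78% of all windows. These are matches of letters and not binding sites.

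Lbx1, the other gene over 2-fold lower, had log2 signals of 7.97 (control) and 6.82 (Mll1 cKO). This is a log2 difference of -1.15, or 2.22-fold lower, rank 13 from the bottom of all named probe sets. Of the 2179 probe sets of similar signal, 0.0918% were as low or lower. Its neighbours on chromosome 19 did not share this difference. Tlx1, another homeobox gene, was dim at 5.67 and 5.29 and 1.30-fold lower, and Btrc, which encodes a ubiquitin ligase subunit, had log2 signals of 9.27 and 9.49 and was 1.17-fold higher.

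Prrx1 had log2 signals of 10.35 (control) and 9.83 (Mll1 cKO), a log2 difference of -0.53, or 1.44-fold lower. This did not reach 2-fold, and 1.42% of 2178 probe sets with similar signal were as low or lower. Pax7 was as bright, at 10.29 and 10.02, with a log2 difference of -0.27, and 10.7% of the same probe sets were as low or lower. Msx1 had log2 signals of 6.24 and 6.0 and was 1.18-fold lower, which 35.3% of the probe sets of similar signal matched or went below. Prrx1 thus lay nearer the edge of the probe sets of its own brightness than Pax7 did, and Msx1 lay well inside.

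Msx2, in contrast to Msx1, was higher in the Mll1 cKO array. Its log2 signals were 5.84 (control) and 6.86 (Mll1 cKO), a log2 difference of 1.02, or 2.03-fold, just past the 2-fold mark. Neither signal was over 7, and the control signal stood at 46.0% in the ranking of named probe sets from dim to bright. When both arrays were quantile normalized again, the log2 difference was 0.92 and the fold 1.90, below the mark. Of the probe sets with similar signal, 96.9% had a difference as low as that of Msx2 or lower, and Msx2 had rank 247 from the top of all named probe sets. The Msx1 difference minus the Msx2 difference was -1.26 log2 units. On chromosome 13, the neighbours of Msx2 were Sptlc1, a subunit gene of serine palmitoyltransferase, 1.10-fold higher at 8.20 and 8.34, and the dopamine receptor gene Drd1, 1.45-fold lower at 6.29 and 5.75.

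Pax3 had log2 signals of 6.44 (control) and 6.99 (Mll1 cKO), a log2 difference of 0.55, or 1.47-fold higher. Of the probe sets with similar signal, 88.1% were as low or lower. The Pax3 and Pax7 differences were 0.83 log2 units apart, with the Pax3 to Pax7 ratio 1.78-fold higher in the Mll1 cKO array. The gene before Pax3 on chromosome 1 is Epha4, which encodes an ephrin receptor that guides axons and migrating muscle precursors, and its log2 signals were 5.51 (control) and 7.22 (Mll1 cKO), 3.27-fold higher. The gene after it, the long noncoding RNA Gm33152, was 1.39-fold lower at 6.17 and 5.70.

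Meox2 was the dimmest of the 9 probe sets, with log2 signals of 5.05 and 5.26 and a log2 difference of 0.21, or 1.16-fold higher. Of the probe sets with similar signal, 89.9% were as low or lower, and with the trend on signal removed the difference was 0.41. Both log2 signals lay within the range from 3.24 to 5.33 spanned by 10 endothelial and immune marker genes in these arrays. A Meox2 transcript is therefore not shown by these signals to be present. The other 8 genes had a mean signal over 6.

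**Figure D2:**
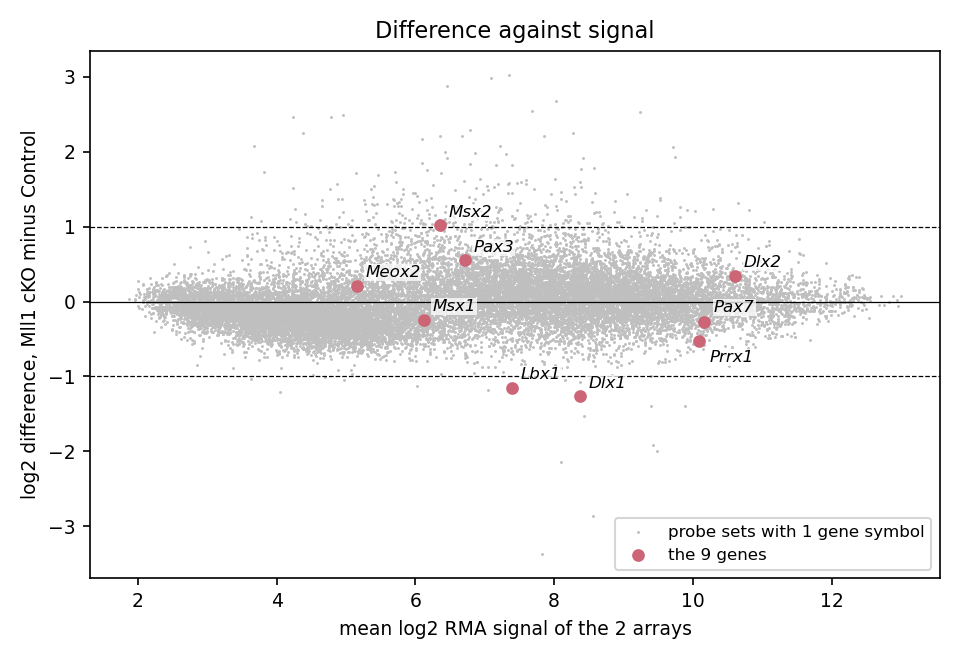
The log2 difference, Mll1 cKO minus control (vertical axis), against the mean log2 signal of the 2 arrays (horizontal axis) for the 21789 probe sets with 1 gene symbol (grey) and the 9 genes (red), with dashed lines at 2-fold. Dlx1 and Lbx1 lie among the lowest points, Prrx1 at the lower edge of the cloud, Msx2 at the upper line, and the others inside it.

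Together the 9 genes gave 1 over 2-fold higher and 2 over 2-fold lower, with 4 higher and 5 lower without regard to size. Their median log2 difference was -0.24, that of Msx1, and their mean was -0.15, against a median of -0.05 for all 19938 genes. Since they were chosen with these values known, the excess over the 0.101% of probe sets that were over 2-fold lower is not evidence about the group. The direction of each of the 9 was the same under the 3 other scalings tried, namely centring on the median, removal of the trend on signal, and renewed quantile normalization. Dlx1 stayed between 2.31-fold and 2.53-fold lower under these and Lbx1 between 2.14-fold and 2.39-fold lower.

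**Figure D3:**
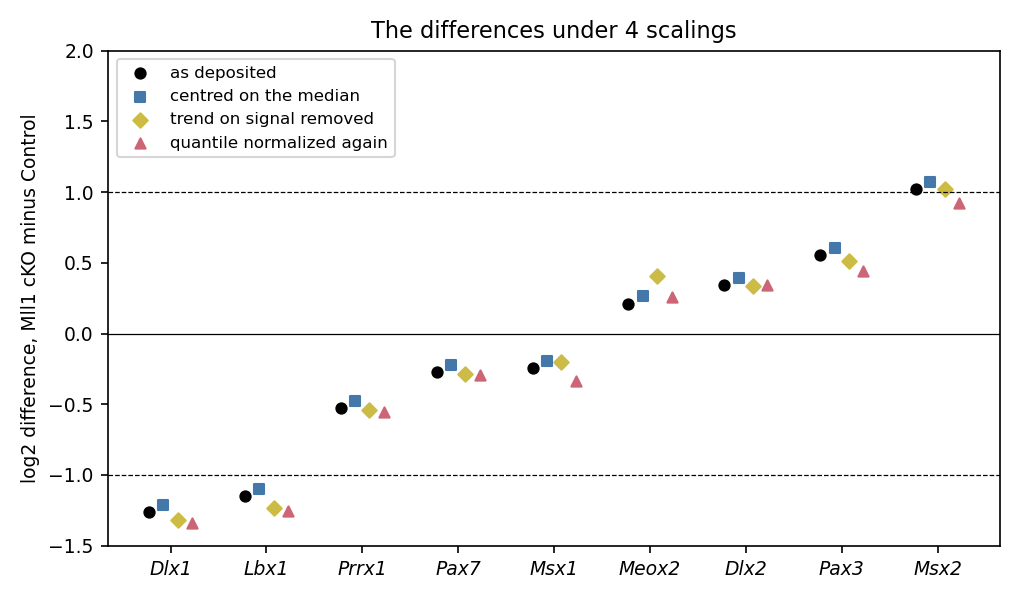
The log2 difference of each of the 9 genes (vertical axis) with the signals as deposited and under 3 other scalings (symbols), with dashed lines at 2-fold. No gene crosses 0, and only Msx2 crosses a dashed line, at 0.92 after quantile normalization.

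The rest of these gene families shows which of the differences were shared by relatives. The 7 other Pax genes, which act in the development of organs such as eye, kidney, thymus and vertebrae, were all lower, by 1.05-fold for Pax6 to 1.42-fold for Pax4. They were also dim, with log2 signals between 4.34 and 5.85 in the control array and between 4.19 and 5.43 in the Mll1 cKO array. Of the 8 other Lbx, Dlx, Msx, Meox and Prrx genes, 2 were higher and 5 were lower, with none over 2-fold. Dlx3, a gene of skin, placenta and tooth, had log2 signals of 6.79 and 7.50 and was 1.63-fold higher, and Prrx2, the paralog of Prrx1, had 8.74 and 9.42, a log2 difference of 0.67. Dlx4 had the same log2 signal of 5.66 in both arrays.

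Of these 15 relatives, Dlx3 and Prrx2 were the only 2 with a mean signal over 6. The 13 dimmer ones had a median log2 difference of -0.36 and 12 of them were lower. Of all 9681 genes with a mean signal of at most 6, 70.8% were lower, and their median was -0.15 on the log2 scale. Of the 10257 brighter genes 41.3% were lower, with a median of 0.06. Low signal therefore went with a lower value across the array as well as in these families. With the trend on signal removed, the median of the other Pax genes was -0.14 in place of -0.34, and that of the 8 homeobox relatives -0.094 in place of -0.29. Prrx1 and Prrx2 were both bright and differed in opposite directions, as did Dlx1 and Dlx2. In the plane of the 2 log2 signals, the closest of 23 genes, the other 8 and these 15, was Lbx1 for Dlx1 at a distance of 1.38, Dlx3 for Lbx1 at 1.36 and Pax3 for Msx2 at 0.61. With 2 arrays this likeness says only that the probe sets were similarly bright in each.

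**Figure D4:**
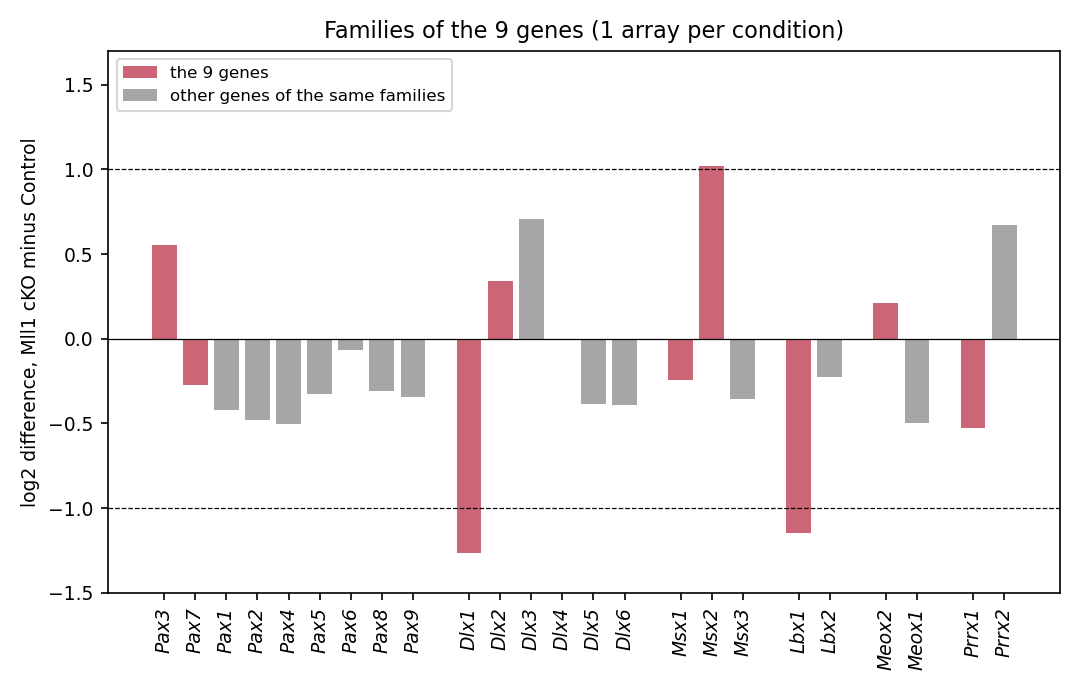
The log2 difference, Mll1 cKO minus control (vertical axis), for the 9 genes (red bars) and the 15 other members of their families (grey bars), with dashed lines at 2-fold. The other Pax genes all lie below 0, whereas Dlx3 and Prrx2 lie above 0, at 0.71 and 0.67.

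The genes with which PAX3, PAX7 and LBX1 work were mostly within 2-fold. Over all 19938 genes, 1.16% were over 2-fold higher and 0.11% over 2-fold lower when the probe sets of a gene were averaged. Of 8 target genes of PAX3 and PAX7, 2 were over 2-fold lower, 4 were higher and 4 lower in all, and the median log2 difference was -0.05. The 2 were Myf5, a myogenic regulatory factor gene, with log2 signals of 9.51 and 6.14 and a 10.3-fold lower value, and Fgfr4, a fibroblast growth factor receptor gene, with 9.0 and 7.77 and a 2.34-fold lower value. Met, the receptor through which hepatocyte growth factor releases precursors towards the limb, had log2 signals of 10.62 and 10.49 and was 1.09-fold lower. Both genes that passed were known to differ on these arrays when the list was made.

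Of 9 genes for proteins that act with PAX7, among them the subunits of the Trithorax complex, none was over 2-fold in either direction, 5 were higher and 4 lower, and the median was 0.07. The largest difference was that of Mapk12, the kinase p38γ, with log2 signals of 6.92 and 7.71 and a 1.72-fold higher value. Of 12 measured genes of limb muscle precursor migration, 1 was over 2-fold higher and none over 2-fold lower, with 6 higher, 6 lower and a median of 0.11. The 1 was Epha4, whereas the genes of its ligand ephrin-A5, Efna5, and of the chemokine receptor Cxcr4 were 1.19-fold and 1.54-fold higher. Hgf, the gene of the hepatocyte growth factor that MET receives, was dim at 4.03 and 4.92 and 1.86-fold higher.

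BMP signalling is a known inducer of Msx and Dlx genes. Of 24 BMP pathway genes 2 were over 2-fold higher and none over 2-fold lower, with 15 higher and 9 lower in all and a median of 0.10. Grem1, a secreted BMP antagonist, had log2 signals of 7.68 and 9.46 and was 3.44-fold higher. Bmp5, a ligand, had the dim signals of 4.52 and 5.55 and was 2.05-fold higher. The inhibitor of differentiation genes Id1, Id2 and Id3, which are direct BMP targets, lay between 1.08-fold lower for Id3 and 1.13-fold higher for Id2, and Id4 was 1.96-fold higher from 6.46 to 7.43. Centring on the median put Id4 past 2-fold as well, for a count of 3. The part of BMP signalling in the Msx2 difference was not tested.

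Prrx1 is also a gene of fibroblasts and other mesenchymal cells, so markers of those cells were read beside it. Of 18 measured transcription factors of limb mesenchyme, none was over 2-fold, 6 were higher and 12 lower, and the median was -0.19. The largest difference was that of Alx4, at 5.34 and 4.72 and 1.54-fold lower. Of 8 measured fibroblast and mesenchymal markers, 7 were lower and none over 2-fold, with a median of -0.27. Their signals, added on the linear scale, came to 592 in the control and 476 in the Mll1 cKO array, a ratio of 0.805. Pdgfra, at 5.15 and 5.09, and Dcn, at 4.44 and 4.79, were in the dim range of the endothelial and immune markers. Lum, at 2.58 and 2.39, was below it. The collagen genes Col1a1, at 6.58 and 6.43, and Col1a2, at 6.36 and 5.98, lay above that range, as did Thy1, at 5.90 and 5.55. The collagen gene Col3a1 was brighter still, at 8.12 and 7.67 and 1.36-fold lower. The largest difference of the 8 was that of Dpt, a dim gene at 3.74 and 3.18 and 1.47-fold lower. A further listed marker of these cells, Ly6a (Sca1), had no probe set with 1 gene symbol and was not counted. The paper lists it among its most upregulated genes on these arrays, so the fall of this list leaves out a marker that rose. The part of such cells in the Prrx1 difference was not tested, and in bulk RNA fewer cells of a type and less RNA per cell cannot be told apart.

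The neural crest also uses Pax3, Msx and Dlx genes, so its markers were read as well. Sox10 and Foxd3, its defining transcription factor genes, had log2 signals of 5.53 and 5.23, and of 5.08 and 4.68, the latter 1.33-fold lower and the largest difference of this list. Erbb3, a neuregulin receptor gene, was brighter at 6.68 and 6.79 and 1.08-fold higher, and the 2 probe sets of Mitf, a melanocyte regulator, lay at 7.29 and 7.39 and at 2.26 and 2.28. Of 6 measured Schwann cell and neural crest markers 2 were higher and 3 lower, with a median of -0.14 and summed linear signals of 258 and 246. Endothelial and immune markers, 5 of each, were all lower, with medians of -0.22 and -0.23, at a brightness where 70.8% of all genes were lower. With the trend on signal removed, these medians were -0.040 and -0.035. The largest differences were those of Tie1, at 5.07 and 4.68, and the T cell gene Cd3e, at 5.33 and 4.85. Smooth muscle and pericyte markers had a median of 0.02 over 5 genes, with the largest difference in Rgs5, a pericyte gene, 1.74-fold higher at 6.95 and 7.74. The median of 5 chondrocyte and osteoblast markers was -0.07. Of these, the cartilage collagen gene Col2a1 was 1.49-fold lower at 6.82 and 6.24, whereas the regulators Sox9, at 9.89 and 10.38, and Sp7, at 8.39 and 8.93, were 1.40-fold and 1.46-fold higher. None of the measured markers in these lists differed by over 2-fold, and their part in the differences of the 9 genes was not tested.

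**Figure D5:**
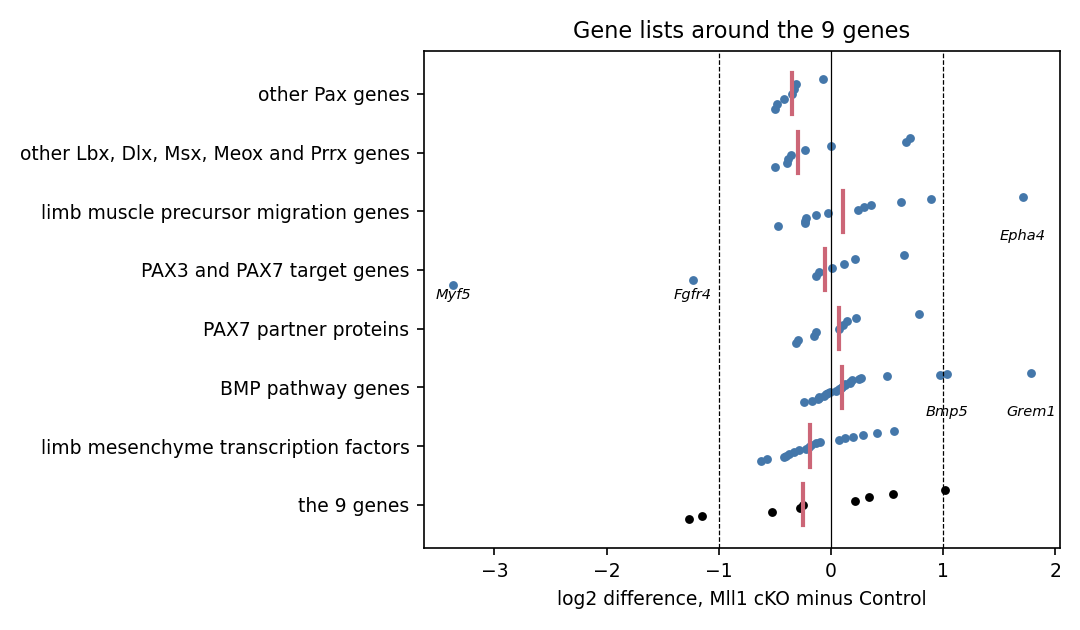
The log2 difference, Mll1 cKO minus control (horizontal axis), of each gene (points) in 7 lists of related genes and in the 9 genes (black), with the median of each list as a red line and dashed lines at 2-fold. The names mark the 5 listed genes over 2-fold, Myf5, Fgfr4, Epha4, Bmp5 and Grem1, and the medians of the 7 lists lie between -0.34 and 0.11.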

How the data were processed

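Gene expression was measured with 1 Affymetrix MoGene 1.0 ST array for the control and 1 for the Mll1 cKO culture. The raw scans were normalized with RMA in R by the authors, a method that corrects the background, makes the distributions of the arrays alike and sums up the probes of each probe set, and they deposited the log2 signals of 35557 probe sets. Its version: not given in the sources used here. Because RMA aligns whole distributions, a shift of all genes would not be seen, and small differences at low signal are compressed. The number of arrays limits the precision.

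Gene symbols came from the platform annotation. Of all probe sets, 21789 had 1 symbol, 1621 several and 12147 none, control probe sets included. Of the first, 21698 had a gene number in the RefSeq table of GRCm38.p6, and no symbol needed an update. Probe sets were averaged per gene for lists. Similar signal means the same 1 of 10 bins of equal size by mean signal. Neighbours are the nearest named genes on each side in RefSeq order.

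Named genes are the 9 genes, every listed gene over 2-fold, for a list with none its largest difference, the neighbours of the genes over 2-fold, and the closest relatives by signal. Gm33152 and the other listed or marker genes named were added after their values were seen. The 9 genes and all lists were chosen with earlier results of these data known. Alternatives were folds of 1.5 and 3, a signal over 7, centring, a lowess trend (span 0.3), and quantile normalization. The counting was tested on simulated data. Python 3.11.15, numpy 2.4.6, pandas 2.3.3, statsmodels 0.14.6 and matplotlib 3.10.9 were used.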

Additional observations from a re-analysis of the deposited data

How the results depend on the processing

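At 3-fold none of the 9 genes passed in either direction, so that the counts were 0 higher and 0 lower, and at 1.5-fold they were the same as at 2-fold, 1 and 2. The count of higher genes was 0 where a log2 signal over 7 was asked of the higher array and 0 after renewed quantile normalization, since Msx2 alone made up that count. The median of the 9 genes kept its sign under every alternative tried. List medians changed sign as follows. Centring moved the target genes of PAX3 and PAX7 to 0.0011 and the myoblast markers to 0.00097. Among genes with a mean signal over 6 the relatives of the homeobox genes moved to 0.69, Schwann cell and neural crest markers to 0.11 and chondrocyte and osteoblast markers to 0.49. The last were 0.060 with the trend on signal removed and 0.027 as a mean, and smooth muscle and pericyte markers were -0.050 after quantile normalization. With 20 signal bins, 28.7% of probe sets of similar signal were as low as Msx1 or lower. The other 8 genes moved by under 5 percentage points. With the trend on signal removed, 2 migration genes were over 2-fold higher, and among genes with a mean signal over 6 only 1 BMP pathway gene was. With 1 array per condition, no alternative bears on the spread between cultures.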
